A study of Mus musculus with 8 samples.

Results

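The flavin monooxygenases Fmo1, Fmo2, Fmo4 and Fmo5 were followed in liver RNA of mice given dexamethasone, a synthetic glucocorticoid, or saline. These 4 genes were found by symbol among the 22565 rows of the protein-coding gene table, and Fmo6 and Fmo9 of the same family are described beside them. All mice were male C57BL/6J, 10 weeks old in the labels. The dexamethasone group received 1.0 mg/kg by intraperitoneal injection each day for 14 days (n = 4 libraries), and the vehicle group received saline on the same schedule (n = 4 libraries). Liver RNA was depleted of ribosomal RNA and sequenced as stranded total RNA libraries. No label says how many mice stand behind a library, so the spread given below is that between libraries of 1 group.

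Flavin monooxygenases are enzymes of the endoplasmic reticulum that add 1 atom of molecular oxygen to a nitrogen, sulfur or carbonyl group of their substrates. Each holds the flavin FAD, is reduced directly by NADPH, and waits in a stable peroxyflavin form until a substrate arrives, so it needs no separate reductase, unlike the cytochromes P450. Fmo5 acts mainly as a Baeyer-Villiger oxidase of ketones and is the main form of mouse liver. Fmo1 oxidises many drugs and converts hypotaurine to taurine. Fmo2 is best known from lung, and Fmo4 has few known substrates. Fmo1, Fmo2, Fmo4 and Fmo6 lie in 1 cluster on chromosome 1, whereas Fmo5 lies apart on chromosome 3.

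Fmo5 was the abundant form in every library, and its level was 2.57 times as high with dexamethasone. Fmo2, a minor form, was 2.09 times as high on average. This difference did not pass the test as deposited and passed it once libraries were put on a common scale. It passed in 16 of 29 alternative fits, not all of them with such scaling. Fmo1 and Fmo4 did not pass the test on either scale. The start-site windows of Fmo5 and Fmo2, the genes with higher levels, are shown so that their letters can be set beside these levels. RefSeq's promoter table (GRCm38.p6, 250 bases before to 50 after a start) matched 3 of the 4 genes, Fmo2, Fmo4 and Fmo5, with 4 windows. Capitals mark CCAAT and TATAAA matches, here both read on the opposite strand as ATTGG and TTTATA, and the receptor half-site AGAACA. The 250 bases before each start are printed 5′ to 3′ on the strand of the gene, and of the second Fmo2 window only the 30 bases around its half-site are given.

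Fmo5, chr3:97628769-97629018, plus strand: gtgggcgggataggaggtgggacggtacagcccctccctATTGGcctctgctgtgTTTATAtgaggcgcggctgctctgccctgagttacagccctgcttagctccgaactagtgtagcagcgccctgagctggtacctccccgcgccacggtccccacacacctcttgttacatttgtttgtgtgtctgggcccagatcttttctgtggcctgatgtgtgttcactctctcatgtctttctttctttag

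Fmo2, first start, chr1:162898759-162899008, minus strand: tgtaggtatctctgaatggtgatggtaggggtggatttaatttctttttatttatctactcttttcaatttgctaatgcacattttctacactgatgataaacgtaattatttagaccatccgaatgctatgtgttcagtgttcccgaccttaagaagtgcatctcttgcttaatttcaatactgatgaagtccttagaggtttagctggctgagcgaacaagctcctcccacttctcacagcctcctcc

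Fmo2, second start, chr1:162898601-162898630, minus strand: tcgggacgccagAGAACAcaaccagctttg

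Positions are counted from the RefSeq start, with negative values before it. In the Fmo5 window, ATTGG began at -211 and TTTATA at -195. The GENCODE M21 gene of Fmo5 starts at base 36 of this window, so both matches lie downstream of that start. The first Fmo2 window held none of the 5 motifs searched, on either strand. The second held AGAACA at -125 and AGGTCA at -9, and the GENCODE gene of Fmo2 starts at base 18 of it, so these matches too lie downstream of that start. The Fmo4 window held CCAAT at -239 and AGGTCA on the opposite strand at -75, and the whole window lies downstream of the GENCODE start of Fmo4. A full glucocorticoid receptor element, searched loosely as GNACA, any 3 bases and TGTNC, was in none of the 4 windows. Of all 32851 windows of this length, 0.475% held that element, 19.0% AGAACA, 13.6% TATAAA, 37.4% CCAAT and 16.3% AGGTCA, counting both strands, and no matches overlapped in the windows of these genes. These matches describe letters and are not evidence of binding.

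Expression was deposited as FPKM (fragments for each kilobase of transcript, relative to library size) and as counts scaled by 1 factor per library. Dividing the scaled counts by their step gave inferred fragments, 1361300 to 2219984 in dexamethasone libraries and 2077518 to 3360096 in vehicle libraries. These fragments are of protein-coding genes only. A single gene, Lars2, took 28.4% to 51.1% of scaled counts with dexamethasone and 14.5% to 25.3% with vehicle, and 11977 to 13001 genes were above 0 with dexamethasone, against 13076 to 13636 with vehicle. The median log2 fold change over the 10221 genes tested was -0.28 as deposited. It was -0.0038 after median-ratio scaling, in which each library is divided by the median of its ratios to the mean library. The 4 genes are given on both scales, and other values are as deposited where no scale is named. With FPKM rescaled to the fragments outside Lars2, the log2 fold change was 1.66 for Fmo5 and 1.13 for Fmo2 (limma adjusted p = 0.00012 and 0.015). The treatment was visible in Fkbp5, a co-chaperone gene induced by the glucocorticoid receptor, which had 59.7 ± 8.73 FPKM with dexamethasone and 6.87 ± 1.20 FPKM with vehicle (SD, n = 4 each). Liver identity was visible in the hepatocyte markers, whose summed level was 9928 to 18475 FPKM with dexamethasone and 17209 to 24728 FPKM with vehicle, with none of the 8 at 0.

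Fmo5 (ENSMUSG00000028088, chr3:97628804-97655282, plus strand) had 331, 283, 296 and 252 FPKM in the 4 dexamethasone libraries, against 115, 139, 114 and 84.5 FPKM in the 4 vehicle libraries. Every dexamethasone library was above every vehicle library, by a wide gap. The level averaged 290.4 ± 32.6 FPKM with dexamethasone and 113 ± 22.3 FPKM with vehicle (SD, n = 4 each). On the log2(FPKM + 1) scale the fold change was 1.37 ± 0.20 (SE, 95% interval 0.935 to 1.804), with an adjusted p of 0.0014 in limma. After median-ratio scaling Fmo5 had 348, 271, 332 and 370.2 FPKM with dexamethasone, against 92.9, 109, 95.2 and 84.5 FPKM with vehicle. The groups stood further apart on this scale, and the log2 fold change was 1.78 ± 0.14 (SE), with a limma adjusted p of 4.4e-05.

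Depth was no limit for Fmo5, which gave 4586, 3478, 3592 and 2108 inferred fragments in the dexamethasone libraries and 1418, 1926, 2128 and 1241 in the vehicle libraries. The fourth dexamethasone library, a shallow one where Lars2 took 51.1% of scaled counts, still held more Fmo5 fragments than 3 of the 4 vehicle libraries. Among all genes of the table ranked by FPKM, Fmo5 stood between places 42 and 60 in dexamethasone libraries (median 56.5) and between 132 and 211 in vehicle libraries (median 189.5). It passed the test in each of the 29 alternative fits, with log2 fold changes of 1.24 to 1.87 and limma adjusted p of 2.8e-07 to 0.0082.

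**Figure D1:**
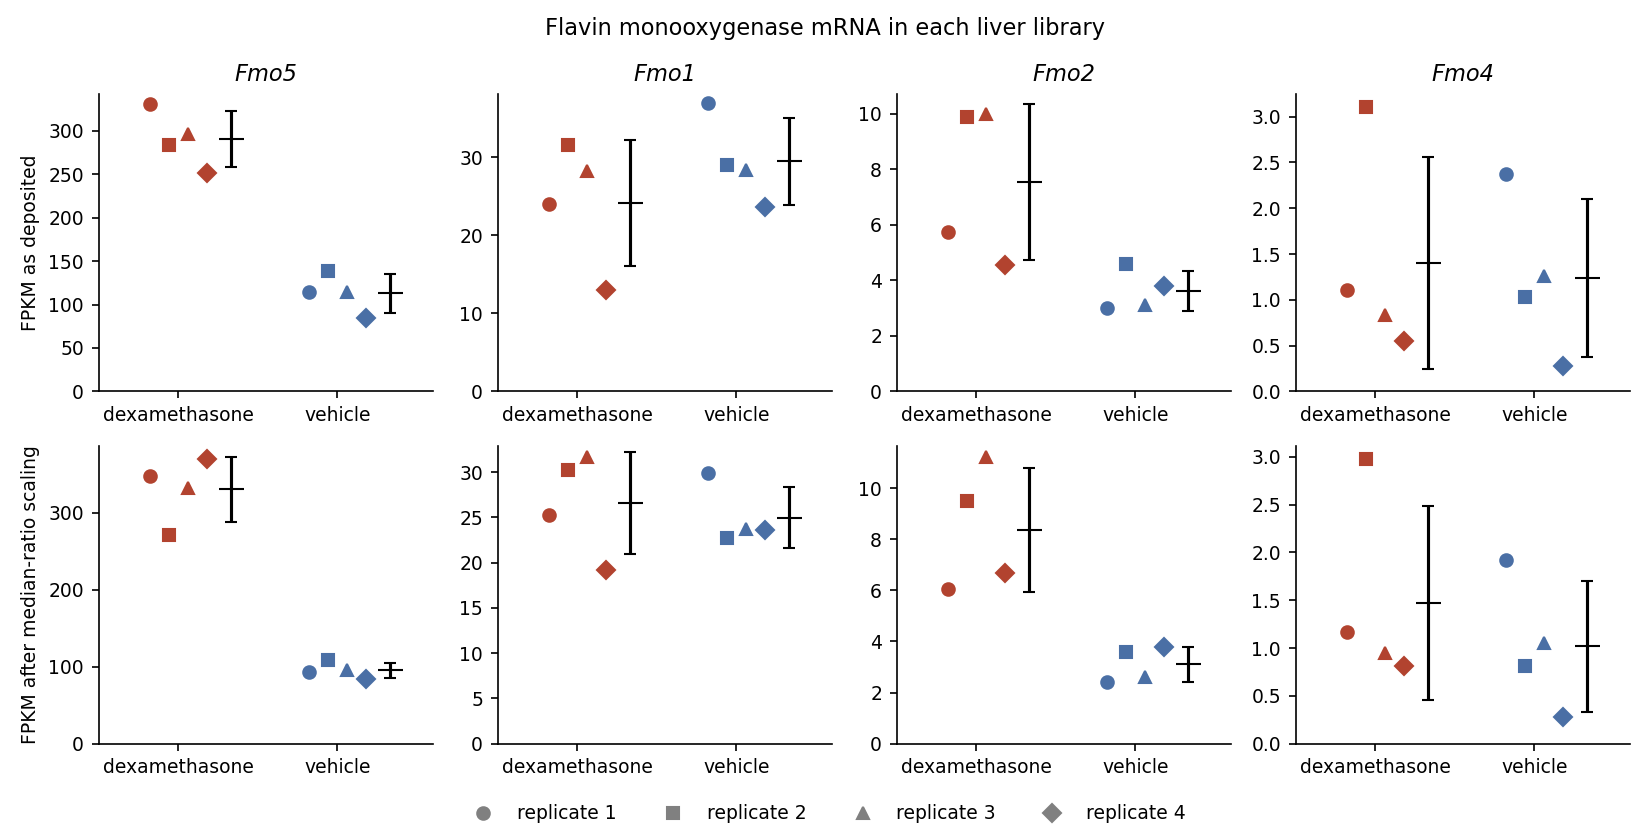
FPKM of Fmo1, Fmo2, Fmo4 and Fmo5 in each library (points, dexamethasone left and vehicle right in each panel) with the group mean and SD (n = 4 each), as deposited and after median-ratio scaling. The Fmo5 groups do not overlap on either scale, the Fmo2 groups separate after scaling, and the Fmo1 and Fmo4 groups overlap on both.

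Of the 4 flavin monooxygenases, 1 was higher as deposited, where 1.37% of the 10221 genes tested were called higher, and none was lower, where 7.85% were called lower. After median-ratio scaling 2 of the 4, Fmo5 and Fmo2, were called higher, beside 3.3% of all genes, and 3.03% of all genes were called lower. The groups did not overlap for 1 of the 4 genes as deposited, beside 2.18% of all genes with every dexamethasone library above every vehicle library, and 16.2% with every one below. After scaling this held for 2 of the 4, beside 7.31% of all genes.

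Fmo2 (ENSMUSG00000040170, chr1:162874317-162898726, minus strand) had 5.75, 9.89, 9.99 and 4.55 FPKM with dexamethasone, against 2.99, 4.57, 3.11 and 3.799 FPKM with vehicle. The fourth dexamethasone library lay just under the second vehicle library, and the other dexamethasone libraries lay above all vehicle libraries. The level averaged 7.55 ± 2.81 FPKM with dexamethasone and 3.62 ± 0.730 FPKM with vehicle (SD, n = 4 each). The log2 fold change of 0.84 ± 0.26 (SE, 95% interval 0.28 to 1.40) did not pass, with a limma adjusted p of 0.061. After median-ratio scaling the values were 6.05, 9.48, 11.2 and 6.69 FPKM with dexamethasone, against 2.42, 3.58, 2.60 and 3.799 FPKM with vehicle. The groups then did not overlap, and Fmo2 passed with a log2 fold change of 1.17 ± 0.22 (SE) and a limma adjusted p of 0.0084.

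Fmo2 rested on 89, 104, 138 and 69 inferred fragments with dexamethasone and 42, 56, 81 and 46 with vehicle, sums of 400 and 225. Its scaled counts were 85.1, 111, 153 and 95.01 with dexamethasone, against 45.7, 54.0, 58.2 and 44.2 with vehicle. These did not overlap before rescaling, in contrast to the FPKM of the same libraries. The share of all genes whose scaled counts separate in this way was not counted. The FPKM that 1 scaled count of Fmo2 was worth varied 1.86-fold over the 8 libraries, against 1.23-fold for Fmo5 and a median of 1.65-fold over 9680 genes. With median-ratio scaled counts the log2 fold change of Fmo2 was 1.56 ± 0.21 (SE), with a limma adjusted p of 4.5e-05, beside 5.27% of genes called higher by that measure. As deposited, leaving out the fourth dexamethasone library brought the Fmo2 FPKM past the threshold, with a log2 fold change of 1.03 and a limma adjusted p of 0.024. Fmo2 passed in 16 of 29 alternatives, with positive fold changes in all 29. These alternatives are not independent. With 1 library left out it passed in 8 of 8 median-ratio scaled fits, chosen after seeing the data, and in 1 of 8 fits as deposited.

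Fmo1 (ENSMUSG00000040181, chr1:162829561-162869555, minus strand) was the form next in abundance to Fmo5 in every library. It had 24.0, 31.6, 28.2 and 13.0 FPKM with dexamethasone, against 37.0, 29.004, 28.3 and 23.6 FPKM with vehicle. The fourth dexamethasone library was low and the first vehicle library high, and the other values were interleaved. The level averaged 24.2 ± 8.07 FPKM with dexamethasone and 29.5 ± 5.54 FPKM with vehicle (SD, n = 4 each). The log2 fold change was -0.33 ± 0.27 (SE, 95% interval -0.90 to 0.25; limma adjusted p = 0.45) as deposited. Its sign turned after median-ratio scaling, to 0.070 ± 0.18 (SE, 95% interval -0.33 to 0.47; limma adjusted p = 0.88). Fmo1 was not shallow, with 264, 272, 281 and 105 inferred fragments with dexamethasone and 320, 299, 427 and 245 with vehicle. The interval after scaling leaves room for changes of less than 0.47 upwards and 0.33 downwards on the log2 scale.

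Fmo4 (ENSMUSG00000026692, chr1:162793883-162813972, minus strand) was near the lower end of what these libraries measure. It had 1.11, 3.11, 0.839 and 0.549 FPKM with dexamethasone, against 2.38, 1.04, 1.26 and 0.283 FPKM with vehicle. The second dexamethasone and the first vehicle library were high, the groups overlapped, and only 42 inferred fragments with dexamethasone and 44 with vehicle lay behind these values (exact Poisson 95% intervals 30.3 to 56.8 and 32.0 to 59.1, counting error only). The log2 fold change was 0.078 ± 0.33 (SE, 95% interval -0.64 to 0.80; limma adjusted p = 0.91) as deposited and 0.28 ± 0.30 (SE; limma adjusted p = 0.67) after scaling. The 95% intervals run from -0.64 to 0.80 as deposited and from -0.38 to 0.94 after scaling. They exclude neither an increase nor a decrease within those limits. The FPKM that 1 scaled count of Fmo4 was worth varied 2.03-fold over the 8 libraries. The direction was negative without the second dexamethasone library (-0.22) and without the fourth vehicle library (-0.16).

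**Figure D2:**
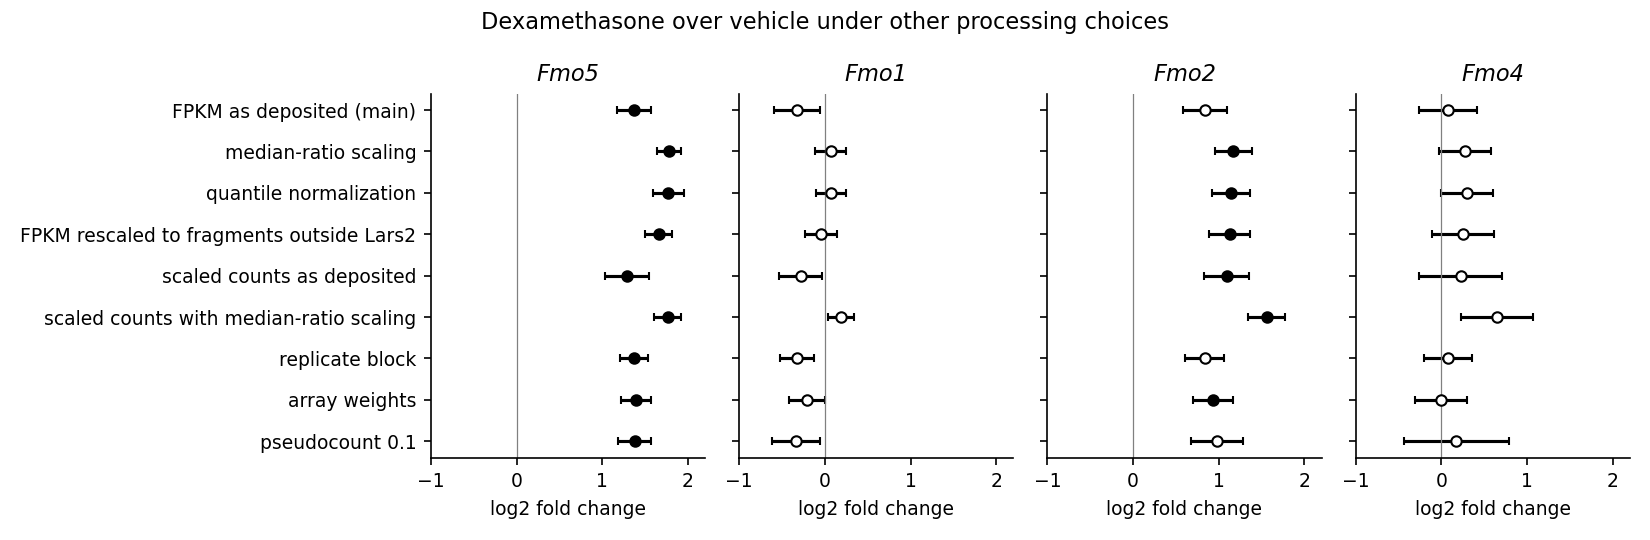
Log2 fold change (dexamethasone over vehicle) of the 4 flavin monooxygenases in the fit as deposited and in 8 of the alternatives, with bars of 1 SE and filled points past an adjusted p of 0.05. Fmo5 is filled in every row drawn, Fmo2 is filled in 6 of them, and Fmo1 and Fmo4 are open in all and lie on both sides of 0.

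Fmo6 and Fmo9 were almost silent in these male livers. Fmo6, which lies beside Fmo2 on chromosome 1, gave 1 inferred fragment, in the third dexamethasone library, and Fmo9 gave 0 in all 8 libraries. Both were under the filter of 0.5 FPKM in at least 4 libraries and so were not among the genes tested.

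Reads of 1 family gene could in principle be counted for another, so the annotated transcripts were compared. No stretch of 50 bases was shared between a transcript of these 4 genes and any other family gene compared, and identity of the coding sequences was between 60.5% (Fmo1 with Fmo5) and 64.3% (Fmo2 with Fmo4). No annotated gene overlapped the 4 loci. The table's loci of Fmo2 and Fmo5 matched GENCODE M21 exactly, while its Fmo1 ends 2945 bases further on and its Fmo4 starts 695 bases later. The longest coding transcripts have 9 exons in Fmo1, Fmo2 and Fmo5 and 10 in Fmo4.

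The make-up of the family's transcript pool differed between the groups. The 4 genes together summed to 323.5 ± 38.5 FPKM with dexamethasone and 147 ± 25.9 FPKM with vehicle (SD, n = 4 each). Of this sum Fmo5 made up 89.9 ± 3.09% with dexamethasone and 76.5 ± 3.03% with vehicle, and Fmo1 made up 7.38 ± 2.10% with dexamethasone and 20.2 ± 2.88% with vehicle. Fmo2 made up 2.32 ± 0.787% with dexamethasone and 2.51 ± 0.659% with vehicle, and Fmo4 less than 1% on average in both. Fmo5 was 8.96 to 19.3 times as high as Fmo1 with dexamethasone and 3.10 to 4.79 times as high with vehicle.

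The 6 pairs of genes were also compared by their ratio within each library, taken as log2 of (FPKM + 1). A ratio of plain FPKM does not depend on how libraries are scaled, but the added 1 FPKM makes this one depend on it somewhat, most for low genes. The log2 ratio of Fmo1 to Fmo5 was -3.73, -3.12, -3.35 and -4.17 with dexamethasone, against -1.61, -2.22, -1.97 and -1.79 with vehicle. No dexamethasone library reached the vehicle range, and the means of -3.59 ± 0.46 with dexamethasone and -1.90 ± 0.26 with vehicle (SD, n = 4 each) differed by -1.69. The log2 ratio of Fmo1 to Fmo2 was 1.89, 1.58, 1.41 and 1.34 with dexamethasone, against 3.25, 2.43, 2.83 and 2.36 with vehicle, again with no overlap and a difference of -1.16. Both gave p = 0.029 in a two-sided exact permutation test, the smallest p that 4 against 4 libraries allow. Adjusted over the 6 pairs the p was 0.057, and neither passed. At the smallest p the adjusted value is set by how many of the 6 pairs reach it, here 3, so it does not judge either ratio alone. All 4 dexamethasone libraries were below all 4 vehicle libraries in both. With no pseudocount, the differences were -1.72 for Fmo1 to Fmo5 and -1.34 for Fmo1 to Fmo2, both with an exact permutation p of 0.029 (0.086 adjusted over the 6 pairs).

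The log2 ratio of Fmo4 to Fmo5 averaged -7.02 ± 0.61 with dexamethasone and -5.73 ± 0.46 with vehicle (SD, n = 4 each), with the same exact permutation p of 0.029 and adjusted p of 0.057. Its groups were separated only by the gap between -6.11 in the second dexamethasone library and -6.10 in the second vehicle library, and they overlapped with a pseudocount of 0.1 or 0.5 FPKM and with none (exact permutation p = 0.14 with none). The remaining pairs had overlapping groups and an exact permutation p of 0.20 each. Among them Fmo2 to Fmo5 averaged -5.15 ± 0.48 with dexamethasone and -4.62 ± 0.32 with vehicle (SD, n = 4 each), so a difference between the changes of these genes was not resolved.

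**Figure D3:**
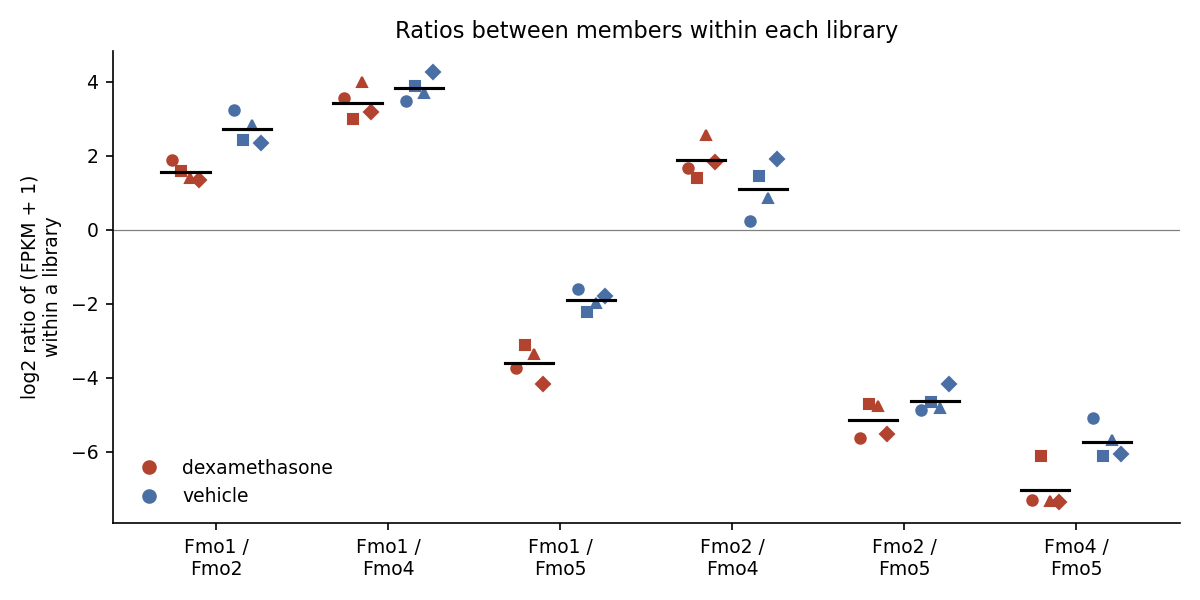
Log2 ratio of (FPKM + 1) for the 6 pairs of flavin monooxygenases in each library (points, dexamethasone left and vehicle right), with group means as lines (n = 4 each). The ratios of Fmo1 to Fmo2 and of Fmo1 to Fmo5 lie lower in all 4 dexamethasone libraries, and the Fmo4 to Fmo5 groups are parted by a narrow gap.

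The genes around the members were compared next. On chromosome 1, where Fmo1 and Fmo2 are 4762 bases apart and Fmo1 and Fmo4 15589 bases apart, 14 rows of the table other than the 3 members lay within 500 kb. Of these, 4 were tested (Prrc2c, Vamp4, Mettl13 and Pigc) and none passed on either scale, with log2 fold changes of -0.40 to -0.27 as deposited and -0.18 to 0.032 after scaling. Pigc is placed by a deposited locus that several rows share, so its own distance is not known from it. On chromosome 3, 9 rows lay within 500 kb of Fmo5 and 6 were tested. Of these, 1 was higher and 1 lower as deposited, and 1 was higher and 0 lower after scaling. Over all genes tested, 1.37% were higher and 7.85% lower as deposited, and 3.3% higher and 3.03% lower after scaling. Chd1l, a chromatin remodeler of the DNA damage response on the opposite strand 14969 bases from Fmo5, rose. It averaged 3.41 FPKM with dexamethasone and 1.16 FPKM with vehicle, with a log2 fold change of 1.03 ± 0.21 (SE; limma adjusted p = 0.011) and of 1.29 after scaling (limma adjusted p = 0.0013). Acp6, a lysophosphatidic acid phosphatase, fell by 0.82 on the log2 scale as deposited (limma adjusted p = 0.027) but did not pass after scaling (-0.45, limma adjusted p = 0.16). Notch2, a receptor of biliary development, had a log2 fold change of -0.60 and did not pass (limma adjusted p = 0.085 as deposited and 0.38 after scaling).

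**Figure D4:**
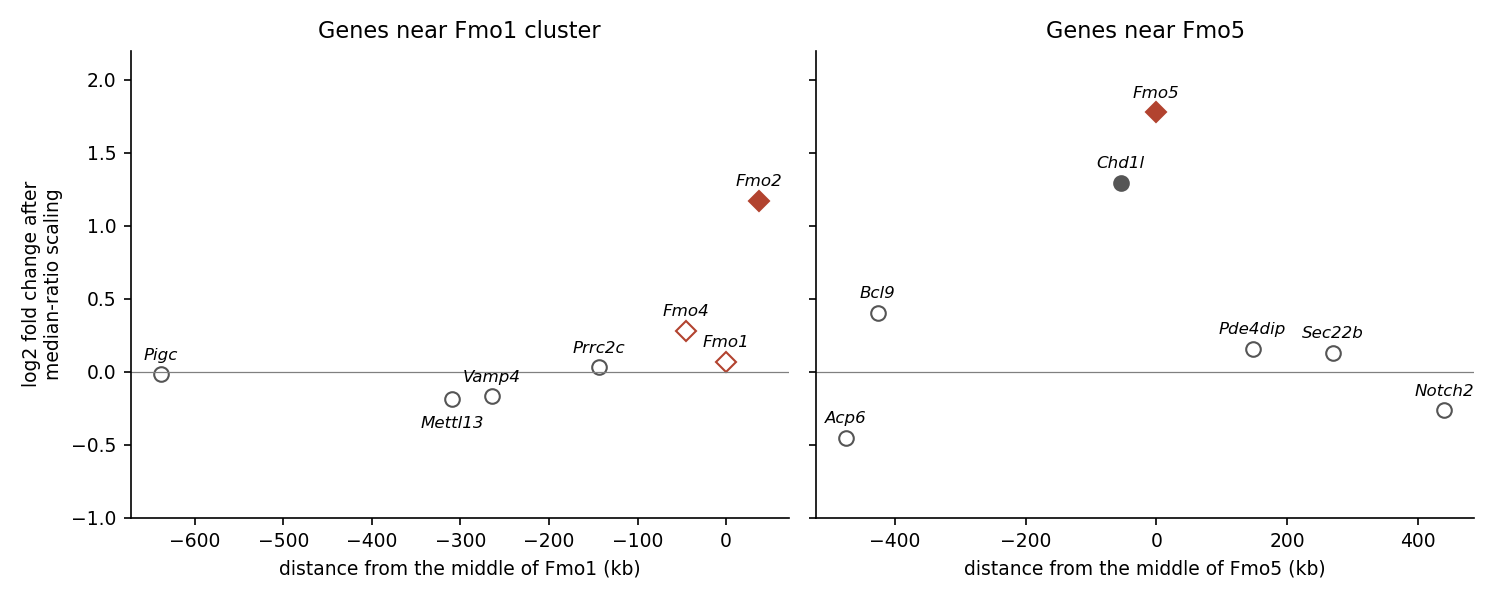
Log2 fold change after median-ratio scaling (dexamethasone over vehicle) of tested genes by the distance of their middle from that of Fmo1 (left) or Fmo5 (right) in kb, with family members as diamonds. Filled points passed an adjusted p of 0.05: Fmo2 and Fmo5 stand at 1.17 and 1.78, Chd1l at 1.29, and the other neighbours did not pass. Pigc is drawn at the middle of a locus shared by several rows.

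Genes that serve or share the work of flavin monooxygenases were counted by list. Over all genes tested, 1.37% were called higher and 7.85% lower as deposited, and 3.3% higher and 3.03% lower after scaling. The counts of each list below are to be read beside these shares. A list of 8 tested electron carriers of the endoplasmic reticulum also held Cyb5b, which is mitochondrial. Of these 8 genes, 0 were higher and 2 lower as deposited, and 1 was higher and 1, Cyb5b, lower after scaling. Their median log2 fold change was -0.54 as deposited and -0.20 after scaling, beside -0.28 and -0.0038 over all genes. Por, the reductase that feeds the cytochromes P450 and that flavin monooxygenases bypass, had 194 ± 24.9 FPKM with dexamethasone and 128 ± 22.8 FPKM with vehicle (SD, n = 4 each). Its log2 fold change was 0.61 ± 0.20 (SE; limma adjusted p = 0.072) as deposited and 1.02 after scaling (limma adjusted p = 0.0028). Cyb5b, the cytochrome b5 of the outer mitochondrial membrane, fell by 1.28 (limma adjusted p = 0.012), and by 0.91 after scaling (limma adjusted p = 0.014). Cyb5, the microsomal cytochrome b5, fell by 0.80 as deposited (limma adjusted p = 0.043) and did not pass after scaling (-0.39, limma adjusted p = 0.25).

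The cofactor genes did not pass. None of the 4 tested genes of riboflavin uptake and FAD synthesis and none of the 9 genes of NADPH supply was called on either scale. Rfk, the riboflavin kinase, had 1.99 ± 0.943 FPKM with dexamethasone and 3.84 ± 0.522 FPKM with vehicle (SD, n = 4 each; limma adjusted p = 0.075 as deposited and 0.30 after scaling). Median log2 fold changes were -0.28 and 0.022 for the FAD list and -0.34 and 0.029 for the NADPH list, as deposited and after scaling, close to those of all genes.

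Taurine genes were counted because Fmo1 forms taurine. Of 6 tested, 0 were higher and 2 lower as deposited, and 1 was higher and 1 lower after scaling. Slc6a6, the taurine transporter, had 2.04 ± 0.331 FPKM with dexamethasone and 6.03 ± 1.16 FPKM with vehicle (SD, n = 4 each). It fell by 1.20 on the log2 scale (limma adjusted p = 0.0046), and by 0.88 after scaling (limma adjusted p = 0.0092). Baat, which joins bile acids to taurine, fell by 0.78 as deposited (limma adjusted p = 0.035) and did not pass after scaling (-0.38, limma adjusted p = 0.12). Cdo1, the cysteine dioxygenase at the head of taurine synthesis, passed after scaling only, with log2 fold changes of 0.54 (limma adjusted p = 0.17) and 0.94 (limma adjusted p = 0.0052).

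Among the cytochromes P450 of families 1 to 3, the other large group of drug oxidases, 30 of 47 rows were tested. As deposited 1 was higher and 8 were lower, and after scaling 2 were higher and 6 lower, with median log2 fold changes of -0.67 and -0.27. Cyp2b10, the classic target of the nuclear receptor Nr1i3, had 219 ± 38.2 FPKM with dexamethasone and 0.475 ± 0.140 FPKM with vehicle (SD, n = 4 each), a log2 fold change of 7.21 ± 0.20 (SE) and of 7.46 after scaling. Cyp2a5 and Cyp2c54, drug-oxidising forms of liver, fell by 2.18 and 2.02 on the log2 scale, with limma adjusted p of 0.0011 and 0.0010. After scaling they fell by 1.77 and 1.62 (limma adjusted p = 0.0020 and 0.0016), and both have close paralogs with which reads may be shared. The level of Fmo5 with dexamethasone, 290.4 FPKM, was of the same order as that of Cyp2b10 and Por.

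Of 15 regulators of hepatic drug metabolism, 0 were higher and 4 lower as deposited, and 2 were higher and 3 lower after scaling. Their median log2 fold change was -0.51 as deposited and -0.17 after scaling, beside -0.28 and -0.0038 over all genes. Nr1i3, the constitutive androstane receptor, had 31.0 ± 6.35 FPKM with dexamethasone and 109 ± 27.0 FPKM with vehicle (SD, n = 4 each) and fell by 1.78 (limma adjusted p = 6.0e-04), and by 1.37 after scaling (limma adjusted p = 0.0057). Nfe2l2, the oxidant-responsive factor, and Foxa1, a pioneer factor of hepatocytes, fell by 1.43 and 1.09 (limma adjusted p = 0.0079 and 0.0067), and by 1.06 and 0.86 after scaling (limma adjusted p = 0.011 and 0.025). Nr3c1, the glucocorticoid receptor itself, had 4.81 ± 1.25 FPKM with dexamethasone and 9.87 ± 1.53 FPKM with vehicle (SD, n = 4 each). It fell by 0.92 as deposited (limma adjusted p = 0.021) and did not pass after scaling (-0.56, limma adjusted p = 0.097).

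Of 12 genes induced by the glucocorticoid receptor, a list chosen with earlier results of these data known, 9 were higher and 0 lower on both scales, beside 1.37% of all genes higher as deposited and 3.3% after scaling. The list had median log2 fold changes of 2.33 and 2.70. Several flavin monooxygenases differ by sex in mouse liver, so sex-biased genes were counted. Of 19 genes known as higher in female liver 2 were above the filter and neither passed, and of 15 genes known as higher in male liver 1 was higher and 4 lower on both scales.

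**Figure D5:**
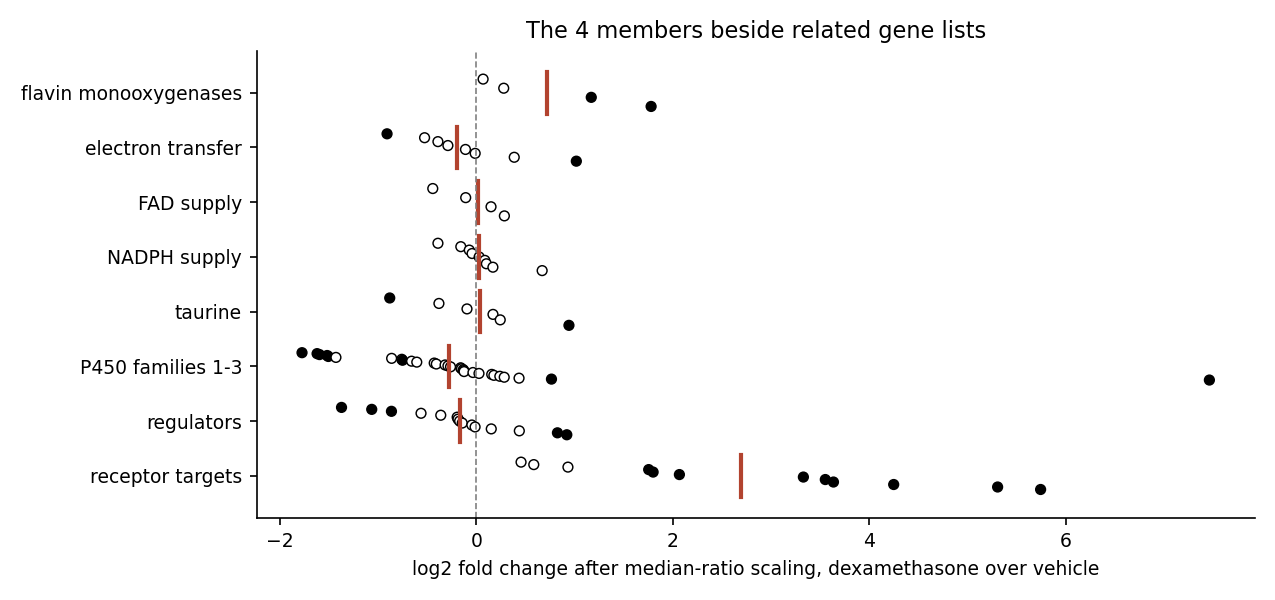
Log2 fold change after median-ratio scaling (dexamethasone over vehicle) of each tested gene of the family and of 7 lists that bear on it, with the list median as a red line, the median of all genes as a dashed line and filled points past an adjusted p of 0.05. The receptor targets lie above 0 with a median of 2.70, the FAD and NADPH lists hold no filled point, and the far point among the P450 genes is Cyp2b10.

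Markers of other liver cells were measured because these are bulk samples, in which fewer cells of a type and less RNA per cell cannot be told apart. Of 10 sinusoidal endothelial markers 1 was higher and 1 lower as deposited, and 4 were higher and 0 lower after scaling. Their summed level was 49.6 to 87.5 FPKM with dexamethasone and 56.1 to 73.7 FPKM with vehicle, with none at 0. Of 10 stellate and 9 Kupffer cell markers tested none passed, with sums of 59.1 to 94.8 FPKM with dexamethasone and 79.3 to 87.6 FPKM with vehicle for stellate markers, and 29.8 to 38.4 FPKM with dexamethasone and 28.1 to 57.4 FPKM with vehicle for Kupffer cell markers. Of the cholangiocyte, adipocyte and smooth muscle markers 1, 2 and 1 were tested and none passed, no neutrophil marker was above the filter, and Adipoq was at 0 in every library. The 8 lymphocyte markers summed to 0 in all dexamethasone libraries and to 0.768 to 2.04 FPKM with vehicle, and none was above the filter. Such sums lie near the floor, and the dexamethasone libraries were shallower. Inferred fragments outside Lars2 were 665939 to 1581794 with dexamethasone and 1636142 to 2571871 with vehicle. Of the hepatocyte markers 0 passed as deposited and 1, Cps1, was higher after scaling. The part of these markers in the change of Fmo5 or Fmo2 was not tested.

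Genes whose levels ran most like each family member were found by Pearson correlation over the 8 libraries, after scaling, among 8344 genes. These correlations include the difference between the groups and are a description. Closest to Fmo5 were Sgk1 (0.997), a glucocorticoid-regulated kinase, Serpine2 (0.994), a protease inhibitor, Cdkn1a (0.993), an inhibitor of the cell cycle, and Fkbp5 (0.991). Among the closest to Fmo2 were Mylip (0.990), a ubiquitin ligase of the LDL receptor, Chka (0.984), a choline kinase, and Tshz1 (0.970), a zinc finger factor. Closest to Fmo1 were Mrs2 (0.968), a mitochondrial magnesium channel, Snx18 (0.967), a sorting nexin, Scd1 (0.948), the stearoyl-CoA desaturase, and Rgs5 (0.946). Closest to Fmo4 were Pde7a (0.929), Irs1 (0.914), Mfsd10 (0.912) and Zfp27 (0.907), where Fmo4 itself rests on few fragments. No gene was among the 4 closest to more than 1 of the family members.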

How the data were processed

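Mouse liver RNA of 8 libraries, 4 from dexamethasone-treated and 4 from saline-treated mice, was sequenced as stranded total RNA after removal of ribosomal RNA, per the labels' protocols. The submitters' processing notes name CASAVA 1.8, TopHat2 and the human build hg19, but the table's gene identifiers and positions are those of mouse and match GRCm38 annotation (GENCODE M21). The counting tool is not given in the sources used here. Per the file headers, the authors deposited FPKM for each library. The columns headed as counts hold a signal, deposited by the authors, that is scaled by 1 factor per library: 93.2% to 95.4% of values of up to 500 steps were whole multiples of 1 step (tolerance 0.01 of a step), short of a raw count, so no count model was run.

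The test was limma 3.58.1 in R 4.3.3 with statmod 1.5.0, using lmFit and eBayes (mean-variance trend), two-sided, with treatment as the only term. Values were log2(FPKM + 1), for the 10221 genes that reached 0.5 FPKM in 4 or more libraries, and p was adjusted by Benjamini-Hochberg over all of them, with a threshold of 0.05. On data simulated with independent noise from median-ratio scaled values, 200 of the 10221 genes were changed, all drawn from those with higher vehicle levels. The fit recovered 54% at a log2 change of 1 and 95% at 2, and called 12 unchanged genes. These figures do not cover the fit as deposited, or genes as low as Fmo4. Ratios between members were compared by exact permutation with scipy 1.17.1, with a pseudocount of 1 FPKM. Alternatives were other pseudocounts, filters, scalings, weights, the scaled counts, a replicate term and each library left out. The libraries are called by their label numbers; these do not mark shared mice, and p-values measure the spread between these libraries. The members, lists and tests were chosen with earlier results of these data known. Genes named were all 4 members, up to 4 tested genes of smallest p per list or neighbourhood, Por and Nr3c1, the 4 most alike genes per member, and Fkbp5. Prrc2c, Vamp4, Pigc, Fmo6 and Fmo9 were named beside the rule, after their values were seen. Fragment intervals cover counting error only. Some genes within these rules are not reported here.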

Additional observations from a re-analysis of the deposited data

Results flagged for a closer look

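The log2 ratio of Fmo4 to Fmo5 was -6.11 in the second dexamethasone library, against -7.30, -7.34 and -7.35 in dexamethasone libraries 1, 3 and 4 and between -6.10 and -5.10 with vehicle. Its gap to the nearest of its own group was 0.958 of the group's whole range, above Dixon's 95% critical value for 4 samples. This library had 3.11 FPKM of Fmo4 from 17 inferred fragments, the most of any library. Here 1 scaled count of Fmo4 was worth 0.171 FPKM, against 0.0963, 0.0843 and 0.0998 FPKM in dexamethasone libraries 1, 3 and 4. In all, 20 groups of 4 values were checked and 1 stood out, and chance alone flags about 1 in 20 such groups.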

How the results depend on the processing

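Fmo5 was higher and past the threshold in all 29 alternatives tried. Median-ratio scaling turned Fmo1 to 0.070, quantile normalization to 0.070 and median-ratio scaled counts to 0.19, and none passed. Fmo2 came past the threshold with median-ratio scaling (1.17), quantile normalization (1.14), array weights (0.93) and scaled counts with median-ratio scaling (1.56), and, among alternatives chosen after seeing the data, with scaled counts as deposited (1.09) and FPKM rescaled outside Lars2 (1.13). The median-ratio scaled fits with a replicate block or with 1 library left out, where Fmo2 also passed, were chosen after seeing the data too. Fmo4 turned to -0.0019 with array weights. Genes called higher and lower numbered 140 and 802 as deposited, 113 and 487 without a filter, 337 and 310 with median-ratio scaling, 335 and 335 with quantile normalization, 539 and 539 on median-ratio scaled counts, 163 and 1473 on scaled counts as deposited and 237 and 415 when rescaled outside Lars2. The cause of these shifts was not tested.

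With each library left out in turn, the calls ranged from 107 to 170 higher and from 367 to 866 lower, and with median-ratio scaling from 221 to 311 and from 183 to 289. The log2 fold changes ranged from -0.47 to -0.067 for Fmo1 (scaled, -0.020 to 0.21), 0.70 to 1.03 for Fmo2 (scaled, 1.03 to 1.29, past the threshold in 8 of 8), -0.22 to 0.30 for Fmo4 (scaled, 0.025 to 0.48) and 1.24 to 1.47 for Fmo5 (scaled, 1.72 to 1.87). The differences in log2 ratio ranged from -1.28 to -0.99 for Fmo1 to Fmo2 and from -1.85 to -1.50 for Fmo1 to Fmo5, with no test, since 4 against 3 libraries cannot go below 0.057.

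Same-numbered libraries did not deviate together (correlations of -0.015 to 0.021 over 4 pairs, and 0 of 4 vehicle libraries correlated best with their own number). With the number as a replicate block, 159 genes were higher and 956 lower, Fmo5 had 1.37 and Fmo2 0.84 (limma adjusted p = 0.0050 and 0.052). With the block and median-ratio scaling together, 243 were higher and 192 lower, Fmo1 was 0.070 and Fmo2 1.17. edgeR and DESeq2 were not run, since only 93.2% to 95.4% of values in a library were whole multiples of the step. The inferred fragments of the 4 members were close to whole. Depth limits Fmo4 and Fmo6.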
